A study of Mus musculus with 6 samples.

Results

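Semaphorins are guidance cues, plexins are their receptors, and neuropilins are co-receptors that hold the secreted semaphorins for plexins. The genes described here are the rows of the count table named as semaphorins of classes 3 to 7, plexins of classes A to D, or Nrp1 and Nrp2. They number 31 of 30619 rows, with 20 semaphorins, 9 plexins and 2 neuropilins, and all 31 passed the filter on low counts that kept 17557 genes. The rule that picks the rows uses names only and no measured value, but it was chosen with earlier results of these data known.

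Poly(A) RNA of mouse hearts at E12.5, in mid-gestation, was sequenced in 3 libraries titled CKO, for a Trim28 conditional knockout, and in 3 control libraries titled CTR. The genotype field reads TRIM28 knockdown for the CKO libraries and WT for the controls. TRIM28 is a co-repressor recruited to DNA by zinc finger proteins. The tissue was whole heart with mixed cardiac cells, and neither the Cre driver, the strain nor the number of hearts behind a library is stated in the labels.

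Class 3 semaphorins are secreted. Classes 4 to 6 are membrane proteins, and Sema7A is tied to the membrane by a lipid anchor. Ligand binding opens the intracellular domain of a plexin, which acts on small GTPases of the Ras family and so on adhesion and the cytoskeleton. In the mouse heart the pathway is best known for the outflow tract, where Sema3C guides neural crest cells and PlexinD1 is needed in endothelium. In the chick, Sema6D acts through PlexinA1 in the shaping of the chambers.

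Trim28 itself was at 172, 314 and 165 CPM (read counts relative to a library size adjusted by TMM factors) in CKO libraries 1, 2 and 3, and at 305, 391 and 443 CPM in control libraries 1, 2 and 3. The library labelled CKO 2 lay inside the control range, and the robust edgeR fit used throughout did not call the gene (log2 fold change -0.81, SE 0.34, adjusted p = 0.339). Of 12 other settings, 2 called Trim28 lower, the non-robust edgeR fit (adjusted p = 0.0194) and limma-voom (0.0165), and none of the 6 leave-one-out fits did. Each direction below therefore rests on the labels. Total counts were 34400841 to 39763233 in the CKO libraries and 36854002 to 39702929 in the controls, of which the 31 genes held 0.205% to 0.222% in CKO and 0.219% to 0.229% in controls. A ribosomal RNA row took 0.563% to 0.79% of the counts in the CKO libraries and 0.126% to 0.522% in the controls. The female transcript Xist had 15232, 7 and 4 counts in CKO libraries 1, 2 and 3 and 24633, 36330 and 17569 in the controls, and 4 Y-linked genes together had 3682, 7144 and 8275 counts in CKO against 3203, 1 and 4564 in controls, so the sex makeup differed between libraries. Nothing says that libraries came from separate animals or litters, and p-values therefore measure the spread between these libraries.

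Of the 31 genes, 1 ligand was called and no receptor. Sema5a, a membrane semaphorin with thrombospondin repeats, was the only member called, and it was lower in CKO. The threshold for a call was 0.05 on the adjusted p of edgeR's quasi-likelihood test, with adjustment over all tested genes. That is 1 of 31 members, none of them higher, beside 4.10% of all tested genes called in either direction, 3.03% called higher and 1.07% called lower. The 3 CKO libraries did not overlap the 3 controls for 7 members, or 22.6%, beside 22.1% of all tested genes. Of the members, 2 (6.45%) had higher and 5 (16.1%) had lower CKO values, beside 11.5% higher and 10.6% lower of all tested genes. Taken in either direction, the called and the non-overlapping shares of the members were near the background. By direction the shares differed more from it, rest on few members and were not tested. The log2 fold changes, given as CKO over control throughout, lay between -0.53 and 0.37. Their median was -0.04, beside 0.0035 over all tested genes, and 20 of the 31 were below 0, beside 49.2% of all tested genes.

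The 2 class 5 semaphorins, Sema5a and Sema5b, had the lowest log2 fold changes of the family. Their promoters, from 250 bases before to 50 bases after the annotated RefSeq start, are shown for that reason, with CG dinucleotides in capitals (a motif that reads CG on both strands). The build is GRCm38.p6, the plus strand is given for both, and the positions are chr15:32244563-32244862 for Sema5a and chr16:35541112-35541411 for Sema5b.
Sema5a: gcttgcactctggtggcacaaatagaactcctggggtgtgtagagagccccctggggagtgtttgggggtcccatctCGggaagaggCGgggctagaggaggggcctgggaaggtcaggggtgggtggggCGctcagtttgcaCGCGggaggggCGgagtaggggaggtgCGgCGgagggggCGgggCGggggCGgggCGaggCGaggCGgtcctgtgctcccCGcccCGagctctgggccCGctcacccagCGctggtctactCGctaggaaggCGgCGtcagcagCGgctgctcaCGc
Sema5b: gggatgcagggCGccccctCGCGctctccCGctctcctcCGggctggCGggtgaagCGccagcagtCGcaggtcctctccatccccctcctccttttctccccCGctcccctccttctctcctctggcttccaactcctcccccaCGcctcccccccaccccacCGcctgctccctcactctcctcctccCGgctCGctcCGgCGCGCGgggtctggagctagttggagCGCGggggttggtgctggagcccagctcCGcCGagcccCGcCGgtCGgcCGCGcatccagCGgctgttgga
The Sema5a promoter held 23 CG dinucleotides with 71.3% G or C, and that of Sema5b 27 with 73% G or C. Of the 32851 promoters in the table, 21.5% held at least as many CG as Sema5a and 15.5% at least as many as Sema5b, and the median over all of them was 7. The 26 members with an entry had 37 promoters with a median of 15 CG (range 2 to 42). Methylation and chromatin were not measured in these libraries, so these letters are a description of the 2 genes and bear on no result.

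Sema5a (ENSMUSG00000022231.10, chromosome 15, 32244810 to 32696341, plus strand) had 33.1, 30.0 and 26.5 CPM in CKO libraries 1, 2 and 3, against 35.6, 39.8 and 40.6 CPM in control libraries 1, 2 and 3. All CKO values lay below all controls. The means were 29.9 ± 3.32 CPM in CKO and 38.7 ± 2.70 CPM in controls (SD, n = 3 each), a log2 fold change of -0.37 (SE 0.09, 95% interval -0.56 to -0.19, adjusted p = 0.0192), which is 0.772 of the control level. In bulk tissue, fewer cells that express a gene and less RNA per cell cannot be told apart. The call did not hold without CKO 3 (adjusted p = 0.150), control 2 (0.0928) or control 3 (0.110), nor with a covariate for Y-linked expression (0.149) or for the ribosomal RNA share (0.594). Over these and the fits without each other library, the log2 fold change lay between -0.46 and -0.29. No control library reached the ribosomal RNA share of any CKO library, so this share and the genotype label cannot be told apart.

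Sema5b (chromosome 16, 35541145 to 35664732, plus strand), which is known to repel axons, was at 6.79, 5.17 and 5.33 CPM in CKO, against 8.58, 7.76 and 8.57 CPM in controls. Its groups did not overlap either. The log2 fold change was -0.53 (SE 0.15, 95% interval -0.85 to -0.20), and it missed the threshold (adjusted p = 0.0608). It passed with no scaling factors (0.0488), with no filter (0.0229), with DESeq2 (0.0489) and without CKO 1 (0.0359). These were 3 of 12 other settings and 1 of 6 leave-one-out fits. It was not called with the Y-linked or the ribosomal RNA covariate, and its highest adjusted p over the 12 settings was 0.471. Summed per kilobase of exon, the class 5 genes stood at 2.73, 2.34 and 2.17 CPM per kb in CKO libraries 1, 2 and 3, against 3.12, 3.22 and 3.39 CPM per kb in controls. They made up 3.21% of the summed semaphorin level in CKO and 4% in controls.

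**Figure D1:**
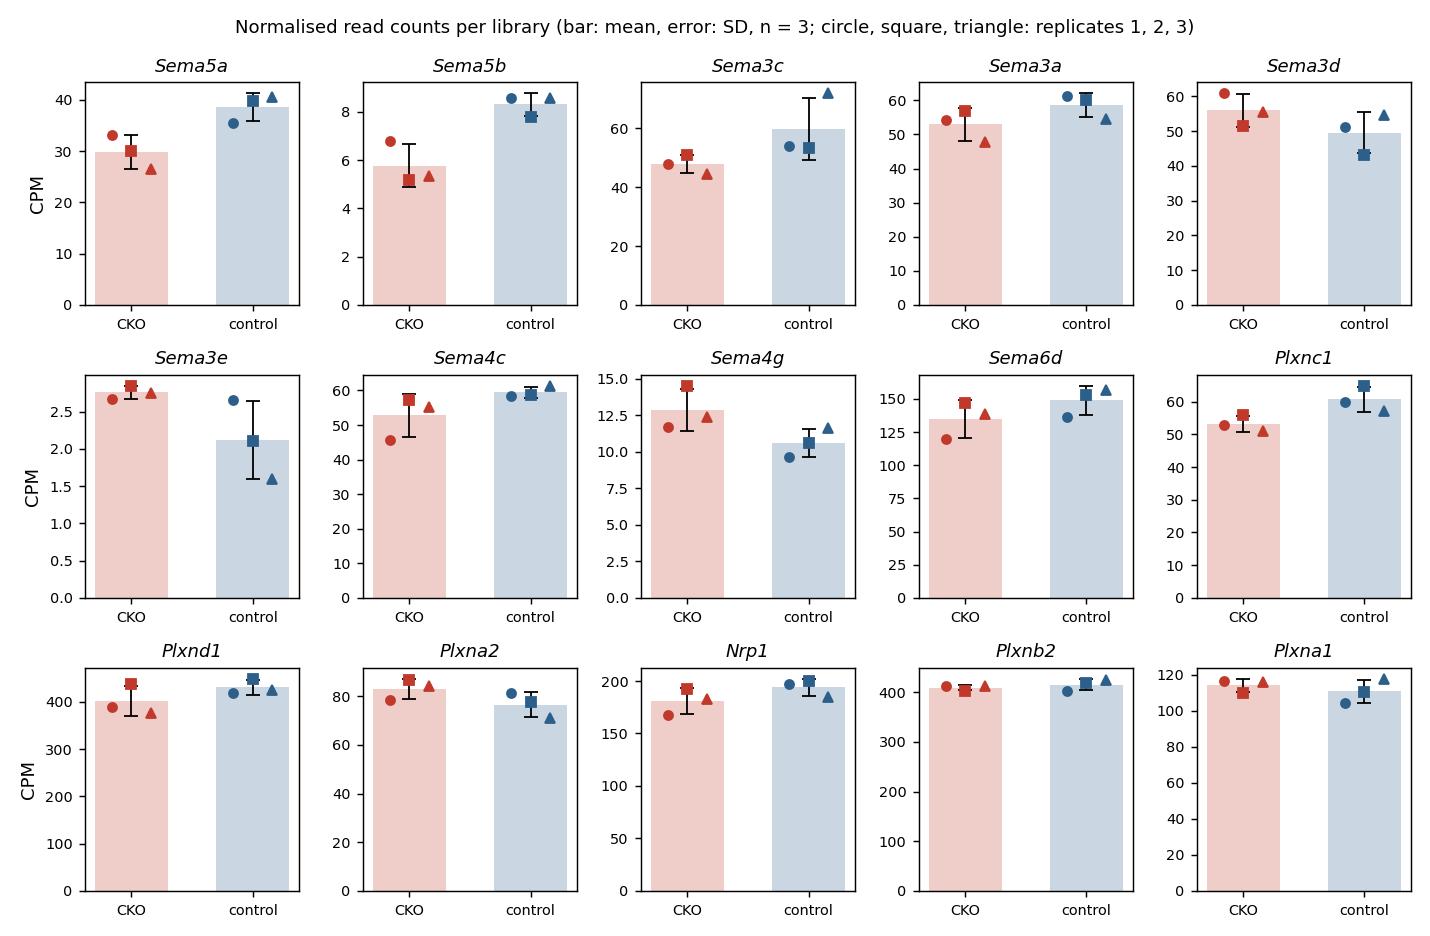
Normalised read counts (CPM, each axis from 0) of 15 members in the 3 CKO libraries (red) and the 3 control libraries (blue), with bars for the mean and error bars for the SD. Sema5a stands at 26.5 to 33.1 CPM in CKO and at 35.6 to 40.6 CPM in controls, while the values of Plxnb2 and Plxna1 overlap.

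Among the secreted class 3 ligands, none of 7 was called. Sema3c (chromosome 5, 17574281 to 17730268), the ligand of outflow tract septation, was at 48.0, 51.0 and 44.6 CPM in CKO, against 53.9, 53.5 and 72.0 CPM in controls. The groups did not overlap, and control 3 stood well above the other controls. The log2 fold change was -0.32 (SE 0.11, 95% interval -0.56 to -0.08, adjusted p = 0.143). Without control 3 it was -0.17 (adjusted p = 0.346), and with the ribosomal RNA covariate -0.07 (0.937), whereas DESeq2 (0.0397) and the unfiltered fit (0.000806) called it. The unfiltered fit gave far smaller adjusted p-values than the fit used throughout for several genes, Acta2, Vegfa and Myh7 among them. The log2 fold changes were nearly the same. For Acta2 the adjusted p was 5.35e-46 without the filter, beside 0.000641.

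Sema3a, which repels axons and patterns cardiac nerves, had 54.4, 56.8 and 47.7 CPM in CKO, against 61.2, 60.2 and 54.7 CPM in controls, and the groups overlapped (log2 fold change -0.15, SE 0.07, adjusted p = 0.302). Sema3d, which patterns the pulmonary veins of the mouse, pointed the other way at 61.0, 51.6 and 55.4 CPM in CKO, against 51.2, 43.1 and 54.5 CPM in controls (0.18, SE 0.09, adjusted p = 0.300). Its groups overlapped too. Sema3e, the ligand that binds PlexinD1 without a neuropilin, was scarce, with 2.68, 2.85 and 2.75 CPM in CKO, against 2.66, 2.10 and 1.6 CPM in controls. Its lowest CKO value was just above its highest control, on 97 to 109 counts in CKO and 60 to 106 in controls (log2 fold change 0.37, SE 0.25, adjusted p = 0.491). Sema3b (-0.10), Sema3f (-0.08) and Sema3g (-0.03) had overlapping groups and adjusted p-values of 0.671 to 0.961.

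The 4 genes Sema3d, Sema3a, Sema3e and Sema3c lie in that order on the plus strand of chromosome 5 (mm10), within 5.35 Mb between 12383385 and 17730268. Among them, Sema3c had the lowest and Sema3e the highest of the log2 fold changes, and the neighbours Sema3d and Sema3a were on opposite sides of 0. Summed over class 3, the level per exon length was 29.0, 29.0 and 27.0 CPM per kb in CKO libraries 1, 2 and 3, against 29.6, 29.5 and 31.7 CPM per kb in controls. The CKO sums were all below the control sums, and no test was made on them. Most of the difference between the mean sums, 28.3 CPM per kb in CKO and 30.3 in controls, came from Sema3c. That gene alone was at 6.70 ± 0.443 CPM per kb in CKO and 8.38 ± 1.48 in controls. Of the 7 genes, 5 had a log2 fold change below 0 and 2 above, so the sums do not show a fall of the whole class.

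None of the 6 class 4 genes was called. Sema4c, a membrane ligand of PlexinB2, was at 45.8, 57.3 and 55.3 CPM in CKO, against 58.5, 58.6 and 61.3 CPM in controls. CKO 1 was the low library here, and the other 2 CKO libraries lay just under the controls (log2 fold change -0.17, SE 0.08, adjusted p = 0.243). Sema4g, another ligand of PlexinB2, was at 11.7, 14.5 and 12.4 CPM in CKO, against 9.66, 10.6 and 11.6 CPM in controls. It was the more abundant of the 2 members whose CKO values all exceeded the controls, and it was not called (0.28, SE 0.13, adjusted p = 0.250). Sema4d, the ligand of PlexinB1 that is also known as CD100 on immune cells, had 46.2 to 54.3 CPM in CKO and 46.3 to 54.3 CPM in controls (-0.04, adjusted p = 0.854). Sema4b was at -0.03 (adjusted p = 0.934).

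Sema4a and Sema4f were near the lower limit of what these libraries measure. Sema4a had 32 to 89 counts in CKO and 50 to 126 in controls, with 95% limits of -1.05 and 0.51 for its log2 fold change. Sema4f had 11, 7 and 25 counts in CKO, against 9, 8 and 24 in controls, with limits of -1.21 and 1.49. The interval of Sema4f thus held changes of more than 1.5-fold in both directions, and that of Sema4a only falls of that size.

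Neither a class 6 gene nor Sema7a was called. Sema6d, the most abundant semaphorin per exon length, was at 120, 147 and 138 CPM in CKO, against 136, 153 and 157 CPM in controls, with overlapping groups (log2 fold change -0.14, SE 0.07, adjusted p = 0.349). Sema6a, a ligand of PlexinA2 and PlexinA4, was at 23.3 to 28.0 CPM in CKO and 26.6 to 29.9 CPM in controls (-0.18, adjusted p = 0.298). Sema6b (-0.10), Sema6c (0.05) and Sema7a (0.02) had adjusted p-values of 0.878 to 0.981. Sema7a, whose protein binds PlexinC1 and beta 1 integrin, had only 100 to 155 counts in CKO and 98 to 159 in controls.

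**Figure D2:**
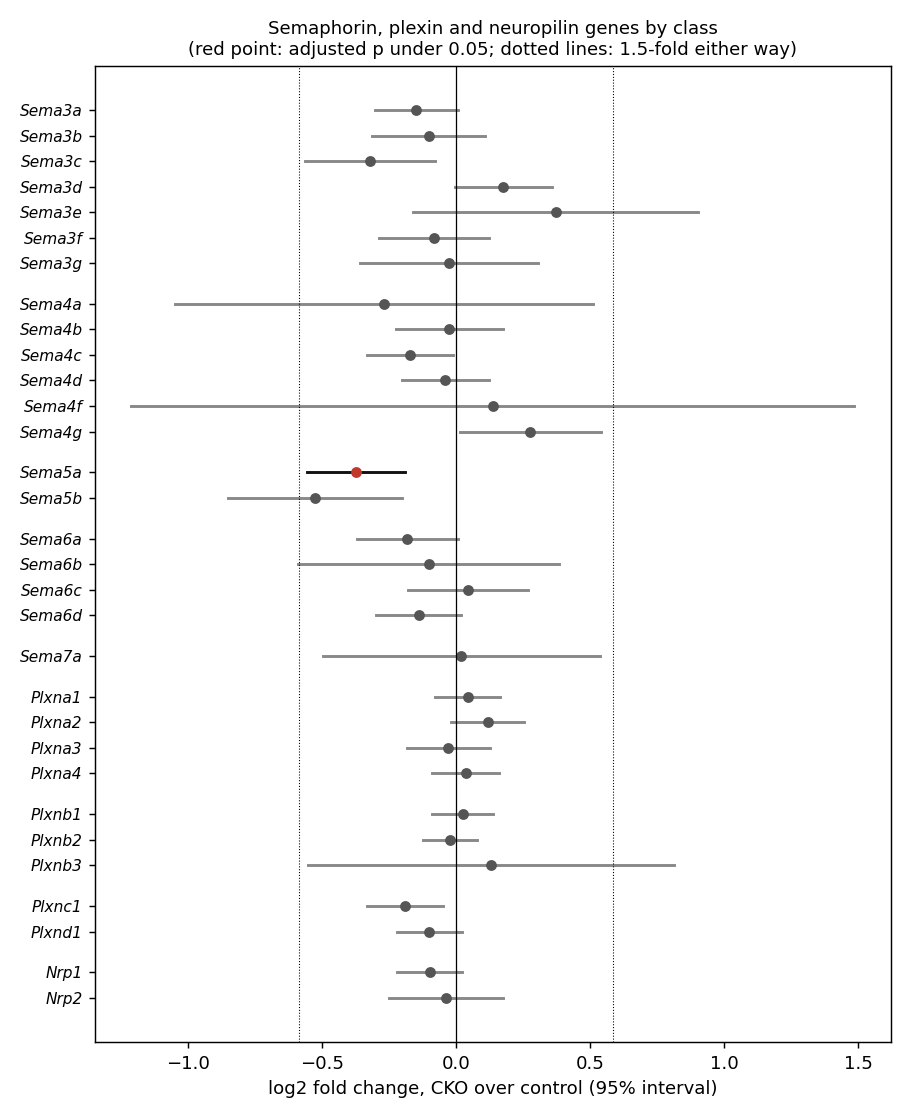
Log2 fold changes (CKO over control, horizontal axis) of the 31 members by class, with 95% intervals from the edgeR fit and dotted lines at 1.5-fold. Sema5a (red, -0.37) is the called gene, and the intervals are widest for the scarce genes Sema4f, Sema4a, Plxnb3 and Sema3e.

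The log2 fold changes of the 11 receptors spanned a narrower range than those of the 20 ligands, which are the larger set. The limits of the ligands were set by Sema5b (-0.53, SE 0.15) and the scarce Sema3e (0.37, SE 0.25). None of 9 plexins and 2 neuropilins was called, and their log2 fold changes lay between -0.19 (Plxnc1) and 0.13 (Plxnb3). Plxnc1, the receptor of Sema7A, was at 52.8, 55.8 and 50.9 CPM in CKO, against 59.9, 64.8 and 57.2 CPM in controls. It was the only receptor whose groups did not overlap (-0.19, SE 0.07, 95% interval -0.33 to -0.05, adjusted p = 0.131), and without the library labelled CKO 2 it was called (-0.23, adjusted p = 0.0475). In that fit 8.53% of all tested genes were called, beside 4.10% in the main fit. Plxnc1 was called in 1 of 6 leave-one-out fits and in 0 of 12 other settings.

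Plxnd1, the endothelial plexin of outflow tract and vessel patterning, was at 390, 438 and 377 CPM in CKO, against 418, 449 and 425 CPM in controls. The groups overlapped because the library labelled CKO 2 lay within the controls (log2 fold change -0.10, SE 0.06, adjusted p = 0.390). Without it Plxnd1 was called (-0.17, adjusted p = 0.0440), in the same fit that called 8.53% of all tested genes. Plxnd1 was called in 1 of 6 leave-one-out fits and in 0 of 12 other settings. Nrp1, which also serves as a co-receptor of VEGF on endothelium, was at 168, 192 and 183 CPM in CKO, against 197, 200 and 185 CPM in controls (-0.10, SE 0.06, adjusted p = 0.406). Again CKO 2 was the highest CKO library. Nrp2, the neuropilin of veins, lymphatics and Sema3F, had overlapping values of 40.0 to 50.4 CPM in CKO and 39.1 to 49.5 CPM in controls (-0.04, adjusted p = 0.896).

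Endothelial markers were measured beside these receptors, none of which was called. Of 10 endothelial and endocardial markers, 3 were lower (Tek, Cdh5 and Kdr) and none higher, 9 had a log2 fold change below 0, and the median was -0.19. Their summed level was 1303, 1489 and 1267 CPM in CKO libraries 1, 2 and 3, against 1523, 1595 and 1576 CPM in controls, so that each CKO library was below each control and CKO 2 was the highest of the CKO. Tek, the angiopoietin receptor, had a log2 fold change of -0.36 (adjusted p = 0.00195) and Cdh5, the endothelial cadherin gene, of -0.30 (adjusted p = 0.00839). The call of Tek held in 6 of 6 leave-one-out fits and that of Cdh5 in 3 of 6, and Cdh5 was not called with the Y-linked covariate (0.0798). The part of endothelial content in the values of Plxnd1, Nrp1 and other members was not tested.

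The class A plexins, which transduce class 3 and class 6 signals, and the class B plexins had log2 fold changes between -0.03 and 0.13. Plxna2, a receptor on cardiac neural crest cells, was at 78.4, 86.6 and 84.1 CPM in CKO, against 81.2, 77.5 and 70.9 CPM in controls, with overlapping groups (log2 fold change 0.12, SE 0.06, adjusted p = 0.367). Plxna1, the receptor of Sema6D, was at 110 to 116 CPM in CKO and 104 to 117 CPM in controls (0.04, 95% interval -0.08 to 0.16, adjusted p = 0.785). Plxna4, a receptor for Sema3A and Sema6A, was at 116 to 135 CPM in CKO and 122 to 124 CPM in controls (0.03, adjusted p = 0.832). Plxnb1 (0.02, 95% interval -0.09 to 0.14) and Plxnb2 (-0.02, -0.12 to 0.08), the receptors of class 4 ligands, had the narrowest intervals of the family. Plxnb2 stood at 412, 403 and 412 CPM in CKO, against 403, 419 and 425 CPM in controls.

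Plxna3 and Plxnb3 lie on the X chromosome, and their values are read beside the mixed sexes of the libraries. Plxna3, a receptor of Sema3F, was at 37.9, 40.4 and 37.0 CPM in CKO, against 40.2, 36.8 and 40.5 CPM in controls (log2 fold change -0.03, adjusted p = 0.894). Plxnb3, the receptor of Sema5A, had only 53, 52 and 47 counts in CKO, against 61, 46 and 39 in controls (0.13, 95% interval -0.55 to 0.81). The 2 libraries with almost no Xist, CKO 2 and CKO 3, lay within the range of the other 4 for both genes.

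Over all 31 genes, the 95% interval of the fold change lay within 1.5-fold in both directions for 25, or 80.6%, beside 62.5% of all tested genes. The 6 others were Sema5b and the scarce genes Sema3e, Sema4a, Sema4f, Sema6b and Plxnb3, each with a mean under 5 CPM in both groups apart from Sema5b. Within the groups, the coefficient of variation was lowest for Plxnb2 in CKO (1.31%) and for Plxna4 in controls (0.951%), and it was highest for Sema4f (59.0% in CKO and 68.4% in controls).

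Per length of all exons, 2 plexins dominated the receptors. Plxnd1 was at 55.0 ± 4.42 CPM per kb in CKO and 59.0 ± 2.21 CPM per kb in controls (SD, n = 3 each), and Plxnb2 at 53.0 ± 0.693 CPM per kb in CKO and 53.8 ± 1.49 CPM per kb in controls. Together they held 68.6% of the summed plexin level in CKO and 69.7% in controls. Which of them came first depended on the length used, since Plxnb2 led with the longest transcript in place of all exons. Per length of all exons, Nrp1 followed at 18.5 ± 1.26 CPM per kb in CKO and 19.8 ± 0.833 CPM per kb in controls. It held 83.1% of the neuropilin level in CKO and 83.8% in controls. With the longest transcript, Nrp1 was close to the 2 plexins, at 49.7 CPM per kb in CKO and 53.2 CPM per kb in controls. Plxnd1 was then at 58.1 CPM per kb in CKO and 62.3 in controls, and Plxnb2 at 62.9 and 63.9.

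The most abundant ligands per length were Sema6d, at 12.8 ± 1.34 CPM per kb in CKO and 14.1 ± 1.04 CPM per kb in controls, and Sema4c, at 11.5 ± 1.34 CPM per kb in CKO and 12.9 ± 0.354 CPM per kb in controls. The class 3 genes together made up 37.7% of the semaphorin level in CKO and 37.4% in controls, led by Sema3c at 6.70 CPM per kb in CKO and 8.38 CPM per kb in controls. With the longest transcript as length, Sema3a (8.93) and Sema3d (8.88) stood just above Sema3c (8.72 CPM per kb) in CKO. Sema5a, the called gene, ranked 22 of 31 in both groups (1.6 ± 0.178 CPM per kb in CKO and 2.07 ± 0.144 CPM per kb in controls), and it had the longest summed exons of the family at 18686 bases. At the low end stood Sema4a, Sema3e, Plxnb3 and Sema4f, from 0.319 CPM per kb in CKO and 0.385 CPM per kb in controls for Sema4a downwards. All 20 semaphorins summed to 75.2 ± 3.35 CPM per kb in CKO and 81.0 ± 3.76 CPM per kb in controls, and the 11 receptors to 180 ± 5.18 CPM per kb in CKO and 186 ± 2.90 CPM per kb in controls.

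**Figure D3:**
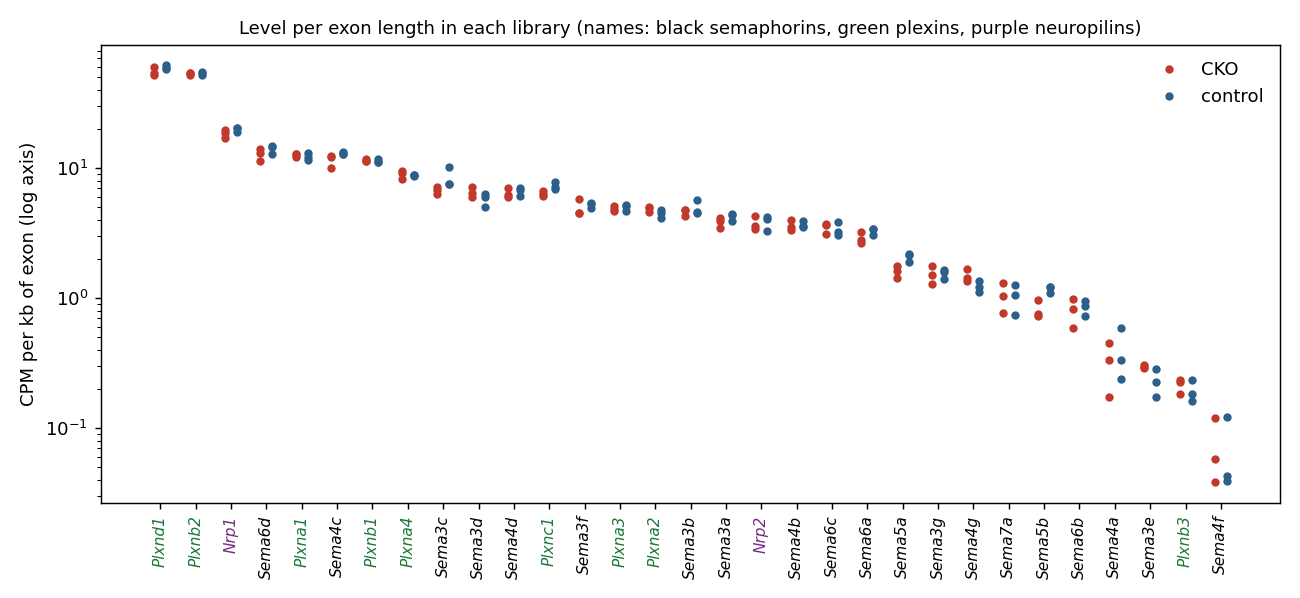
Level per exon length (CPM per kb, log axis) of the 31 members in each CKO library (red) and control library (blue), in falling order of the CKO mean. Plxnd1 and Plxnb2 stand above 50 CPM per kb in both groups, and Sema4f lies lowest.

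Ligands were set beside the receptors they are known to bind in 31 pairs of 18 ligands and 11 receptors, which share genes and so are not independent. The ligand was below its receptor per length of all exons in all 6 libraries in 24 of the pairs. Which gene of a pair stands higher depends in part on the length used. With the longest transcript, Sema3a was at 9.90 CPM per kb in controls, above its receptor Plxna4 at 9.57. In CKO, Sema3a was at 8.93 and Plxna4 at 9.80 CPM per kb by that length. Both log2 fold changes were below 0 in 14 pairs and both above 0 in 1. In 11 pairs the ligand was below and the receptor above 0, and in 5 the reverse held. A called gene took part in 2 pairs, those of Sema5a.

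The groups did not overlap in the ratio for 8 of the 31 pairs. Levels of single genes did not overlap for 22.1% of all tested genes, and no such share was made for ratios. Of the 8 pairs, 4 had a class 5 ligand, whose own groups did not overlap either. The same held for the ligands Sema3c, Sema3e and Sema4g in their pairs, so these ratios largely repeat the ligand values. Only in the pair of Sema6a and Plxna2 did the groups of both genes overlap. The ratio was lower in CKO in 6 of the 8 pairs and higher in 2. The higher ones were Sema4g to Plxnb2, at 0.0281 in CKO and 0.0228 in controls on average, and Sema3e to Plxnd1, at 0.00542 in CKO and 0.00389 in controls. The Sema5a to Plxnb3 ratio was 7.86, 6.90 and 7.74 in CKO libraries 1, 2 and 3, against 8.08, 11.6 and 13.6 in controls, with the receptor at 39 to 61 counts per library. The ratio of Sema5a to Plxna1, another of its receptors, was 0.138, 0.133 and 0.111 in CKO, against 0.165, 0.175 and 0.168 in controls. Sema5b stood at 0.199, 0.143 and 0.161 of Plxna3 in CKO, against 0.237, 0.235 and 0.235 in controls. The controls were nearly equal in this ratio, and all CKO libraries were lower.

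Sema3c and its receptor Plxna2 had opposite signs. The ratio of Sema3c to Plxna2 was 1.47, 1.42 and 1.28 in CKO, against 1.6, 1.66 and 2.44 in controls. Control 3 was far above the other controls, and the groups parted by a small margin without it. The ratio of Sema6a to Plxna2 was 0.582, 0.633 and 0.571 in CKO, against 0.641, 0.755 and 0.815 in controls. The ratio of Sema6d to Plxna1 was 1.02 ± 0.135 in CKO and 1.15 ± 0.0347 in controls (SD, n = 3 each), with groups that overlapped. With the longest transcript, Sema6d stood further above Plxna1. Sema6d was then at 21.0 CPM per kb in CKO and 23.1 in controls, and Plxna1 at 12.6 and 12.2. No ratio was tested.

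**Figure D4:**
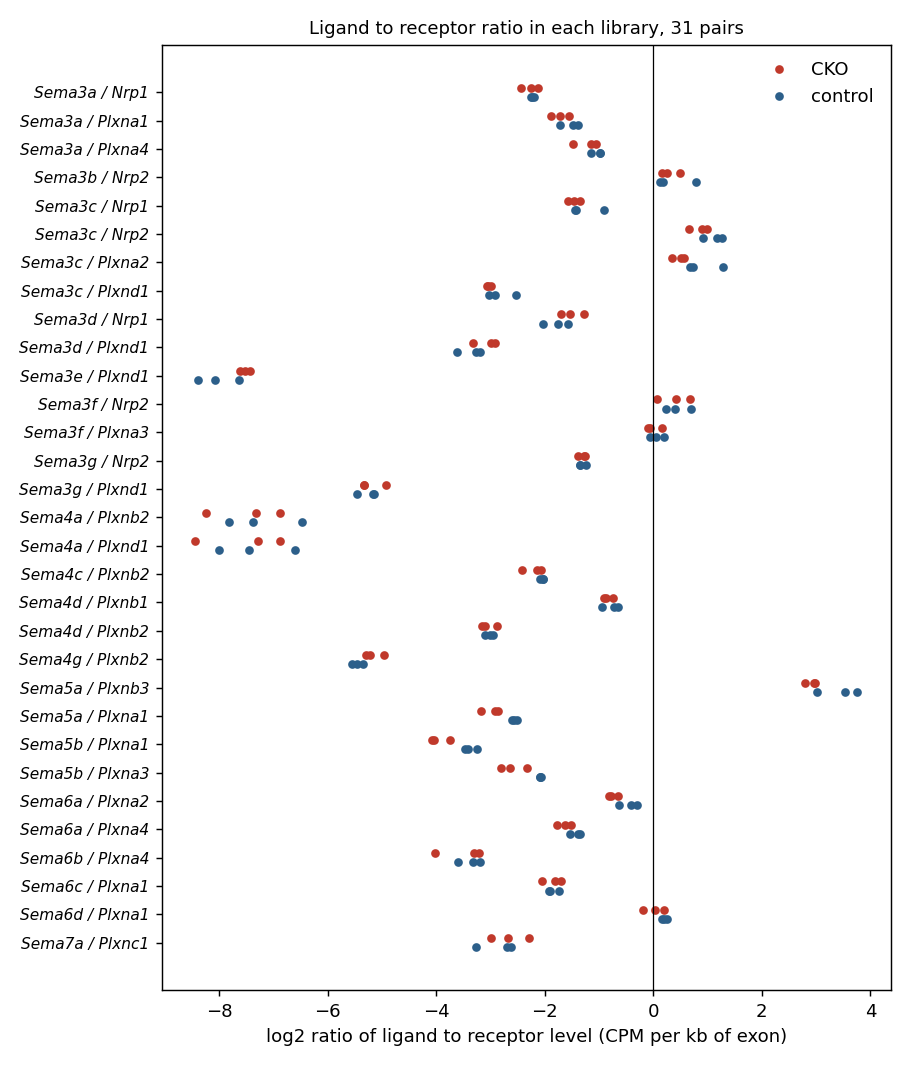
Log2 ratio of ligand to receptor level (CPM per kb of exon) for 31 pairs, with a point for each CKO library (red) and control library (blue). Most pairs lie left of 0, where the receptor is the higher, and the CKO points of the Sema5a and Sema5b pairs lie left of the control points.

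Genes that work with the family were read from lists of the pathway. Among 37 intracellular effectors of plexins, 1 was higher and none lower, and the median log2 fold change was 0.02. The gene was Mical3, which encodes an enzyme that oxidises actin, at 197, 211 and 198 CPM in CKO, against 171, 171 and 169 CPM in controls (0.24, SE 0.05, adjusted p = 0.00977). Its call held in 3 of 6 leave-one-out fits. Its relative Mical2 (0.18, adjusted p = 0.0569), the cofilin kinase gene Limk1 (0.26, 0.0564), and the collapsin response mediators Dpysl3 (-0.18, 0.0759) and Dpysl2 (0.19, 0.1) were not called.

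Of 13 tested further receptors and co-receptors, 1 was higher and 1 lower. Cspg4, a chondroitin sulfate proteoglycan of pericytes, of the kind of molecule that Sema5A is known to bind, was at 136, 120 and 132 CPM in CKO, against 106, 105 and 99.8 CPM in controls (log2 fold change 0.32, SE 0.06, adjusted p = 0.00379). Kdr, the VEGF receptor that pairs with Nrp1, was at 135, 167 and 140 CPM in CKO, against 174, 185 and 171 CPM in controls (-0.26, SE 0.07, adjusted p = 0.0460), and its call held in 1 of 6 leave-one-out fits. Itga1, an integrin subunit of the Sema7A receptor, was at 0.21 (adjusted p = 0.0514), with a call under 4 of 12 other settings.

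A list of 7 VEGF ligands and receptors that use neuropilins did not include Kdr, which was called lower as given above. None of these 7 was called in the robust edgeR fit. Vegfa was at 144, 203 and 165 CPM in CKO, against 120, 121 and 123 CPM in controls, so that the groups did not overlap and CKO 2 was the highest (log2 fold change 0.49, SE 0.11, adjusted p = 0.0533). It was called higher under 5 of 12 other settings: no filter (4.93e-13), DESeq2 (7.8e-06), limma-voom (0.00885), the non-robust fit (0.00475) and the replicate block (0.00558). Vegfc, the lymphatic factor, was at 24.6, 25.2 and 25 CPM in CKO, against 28.9, 30.5 and 31.1 CPM in controls (-0.28, SE 0.08, adjusted p = 0.0564), with a call under 3 of the 12. Of 9 genes of proteases and glycans that act on semaphorins, none was called, and Furin, which processes class 3 ligands, was at 0.13 (adjusted p = 0.212).

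Of 17 transcription factors of the outflow tract and second heart field, 2 were lower and none higher, with a median of -0.01. Foxc1, a forkhead factor of the outflow tract and vessels, was at 30.7, 33.8 and 30.7 CPM in CKO, against 43.6, 41.3 and 42.3 CPM in controls (log2 fold change -0.42, SE 0.07, adjusted p = 0.00223). Its call held in 6 of 6 leave-one-out fits and was lost with the ribosomal RNA covariate (0.139). Hand2 was at -0.23 (adjusted p = 0.0263, a call in 2 of 6 leave-one-out fits). Gata6, which is known to activate Sema3c and Plxna2 in the outflow tract, was at -0.14 (SE 0.06, adjusted p = 0.248).

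Markers of the other cell types of the heart were measured in the same libraries. Of 8 smooth muscle markers, 3 were higher (Acta2, Myh11 and Cnn1), with a sum of 2330 to 2807 CPM in CKO and 1716 to 1754 CPM in controls. Acta2 made up most of this sum, at 1649 to 2145 CPM in CKO and 1184 to 1227 CPM in controls. Of the 8, 7 had a log2 fold change above 0 and 1 below. The latter was Myocd (-0.20, adjusted p = 0.191), which the unfiltered fit called lower (0.0336). Of 8 cushion mesenchyme and fibroblast markers, Postn alone was lower (-0.29, adjusted p = 0.0156, held in 3 of 6 leave-one-out fits), with sums of 3367 to 4097 CPM in CKO and 3290 to 3946 CPM in controls. None of 9 tested markers of neural crest, Schwann cells and neurons was called, with sums of 27.9 to 33.9 CPM in CKO and 24.9 to 31.8 CPM in controls. Of 8 epicardial markers Krt19 alone was higher, and 6 had a log2 fold change above 0 and 2 below. The epicardial sums overlapped at 400 to 442 CPM in CKO and 404 to 419 CPM in controls. Of 8 macrophage markers C1qa and C1qb were higher. The call held in 2 of 6 leave-one-out fits for C1qa and in 1 of 6 for C1qb, and C1qb was not called by limma-voom (0.0524) or with the replicate block (0.0573). Of 9 cardiomyocyte markers Myl7 and Myh6 were higher, 5 had a log2 fold change above 0 and 4 below, the median was 0.03, and the sums overlapped at 27645 to 29296 CPM in CKO and 26277 to 28163 CPM in controls. Among the 4 was Myh7 (-0.23, adjusted p = 0.138), which DESeq2 (0.0230) and the unfiltered fit (1.1e-06) called lower. None of 7 erythroid markers was called, with sums of 837 to 979 CPM in CKO and 933 to 1597 CPM in controls. With the ribosomal RNA covariate, Acta2, Myl7 and Myh6 kept their calls (Myh6 held in only 2 of 6 leave-one-out fits and was lost with the Y-linked covariate at 0.0923), and no other called gene of these lists or of the pathway lists did, Tek (adjusted p = 0.254), Cspg4 (0.434), Mical3 (0.407) and Kdr (0.548) included. Lung and foregut markers summed to 0.464 to 1.90 CPM in CKO and 0.701 to 1.43 CPM in controls, with Sftpc at 0 or 1 count per library. The part of these cell types in the values of the 31 genes was not tested.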

How the data were processed

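Sample titles gave each group and replicate number. The deposited table holds raw counts of reads per gene symbol, as named per the labels. Coordinates refer to mm10, the build in the submitters' processing notes. No aligner, counter, annotation or strand setting is stated in the labels. Reads of antisense genes that share exon bases with Plxna1, Plxna4, Plxnb1 and Sema4c can therefore not be told apart from theirs. Those found in the table had at most 132 counts in a library. The 31 members and all gene lists were chosen with earlier results of these data known.

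In R 4.3.3, edgeR 4.0.16 was run on the counts. filterByExpr (minimum count 10, total 15) kept 17557 genes, TMM factors scaled the libraries, and robust glmQLFit and glmQLFTest fitted group alone (two-sided, Benjamini-Hochberg over all tested genes). The SE is the log2 fold change over the square root of F, and intervals are at 95%. Exon lengths and positions came from GENCODE M21 (mm10), and promoters from RefSeq. Libraries of a group differed by far more than sampling noise (chi-square per degree of freedom 9.83 to 18.7). The pipeline was run on simulated counts that held no group difference in sex makeup or ribosomal RNA share. That run therefore does not bear on how these differences affect the calls. From other lists, called genes and up to 4 further genes (2 for marker lists) with the smallest adjusted p were named. Alternatives were no scaling factors, RLE or upper-quartile factors, no filter or 1 CPM in 3 libraries, DESeq2 1.42.0, limma-voom (limma 3.58.1), a non-robust fit, a replicate block, covariates for Y-linked and ribosomal RNA expression, leaving out each library, an adjusted p under 0.01, the longest transcript as length and, added after seeing the data, edgeR's legacy method. The number of libraries, 3 per group, and the spread between them limit the precision.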

Additional observations from a re-analysis of the deposited data

How the results depend on the processing

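Sema5a was the called member, or among them, under 10 of the 12 other scalings, filters, tests and models, and called members were lower in each setting that had any. Members called numbered 2 of 31 with no scaling factors (4.26% of all genes tested there were called), 3 with no filter (4.09%), 3 with DESeq2 (6.08%), 0 with the Y-linked covariate, 0 with the ribosomal RNA covariate and 0 at an adjusted p under 0.01, and 0 to 3 without 1 library (3 without CKO 2, where 8.53% of all genes tested were called). Over all genes, 720 calls (532 higher and 188 lower) became 748 with no scaling factors, 996 with DESeq2, 1251 with no filter (863 and 388), 307 with the Y-linked covariate (272 and 35), and 56 with the ribosomal RNA covariate (53 and 3). At an adjusted p under 0.01 there were 281 calls (247 and 34), and DESeq2 called 304 lower. Leaving out 1 library gave 301 to 1552 calls (255 to 1012 higher, 39 to 540 lower), the most without the library labelled CKO 2. The cause was not tested.

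Some genes changed sign, among them Sema3e and Sema4a, which were not near 0 (0.37 and -0.27), and the foregut marker Epcam. With the Y-linked covariate the log2 fold changes were -0.31 for Sema4f, 0.00768 for Sema6b, 0.0448 for Sema4b, -0.000279 for Sema6c and 0.0502 for Sema3b. With the ribosomal RNA covariate they were 0.0244 for Sema6b, 0.12 for Sema4d, 0.033 for Sema6d, -0.27 for Plxnb3, 0.031 for Plxnb2, -0.024 for Plxnb1 and -0.0545 for Sema3e. With no scaling factors Sema7a was at -0.0033. Without 1 library the ranges were -0.47 to 0.83 for Sema4f, -0.27 to 0.0882 for Sema6b, -0.11 to 0.00498 for Sema4d, -0.16 to 0.082 for Sema3g, -0.15 to 0.0306 for Nrp2, -0.60 to 0.17 for Sema4a, -0.0142 to 0.0861 for Plxna4, -0.00299 to 0.0798 for Plxna1, -0.10 to 0.0219 for Sema4b, -0.19 to 0.21 for Sema7a, -0.0261 to 0.14 for Sema6c, -0.17 to 0.012 for Sema3b and -0.78 to 0.39 for Epcam. None of these was called in either fit.

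No pairing by replicate number was seen. Same-numbered CKO and control libraries deviated from their group means with correlations of -0.00223, 0.0167 and 0.00136. With 3 libraries per group of mixed sex, these values cannot exclude a pairing. With the replicate block 676 genes were called, among them Sema5a (adjusted p = 0.0366) as the 1 member.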
